A study of Mus musculus with 12 samples.

Results

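The comparison described here asks whether 12 weeks on a high-fat diet altered how the mouse kidney responded to ischemia and reperfusion of the liver. For each gene, the response to hepatic ischemia-reperfusion injury (hIRI) was measured on the high-fat diet (HFD) and on the normal diet (ND), and the ND response was subtracted from the HFD response. This difference between the responses is called the interaction. All 12 of the 12 kidney RNA libraries entered it, 3 from each of the groups HFD + hIRI, HFD + sham, ND + hIRI and ND + sham.

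The mice were wild-type C57BL/6 males, and no group carried a transgene or a deletion. They were placed on their diet at an age of 10 weeks and kept on it for 12 weeks. ND held 20% protein, 10% fat and 70% carbohydrate, and HFD, which was also rich in sucrose, held 12.6% protein, 29% fat and 46.2% carbohydrate. In both hIRI groups, the branch of the hepatic pedicle that feeds the left lateral and right median lobes was clamped for 60 min and then released, so that part of the liver kept its blood supply. In both sham groups the abdomen was opened without clamping, so every mouse had anesthesia and laparotomy. Kidneys were taken 6 h later. Each library was taken as 1 mouse, so the p-values measure the spread between 3 mice per group.

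An ischemic liver releases damaged-cell products and inflammatory mediators into the blood, and the kidney is one of the distant organs that respond. Tubular cells under such stress switch on injury and acute phase genes and lower transport genes. Because an interaction subtracts one response from another, it carries the error of 4 groups and is harder to detect than either response alone.

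Totals ran from 20874584 to 29451344 counts per library, and read counts were available for 14091 genes. The libraries within each hIRI group stood apart from one another. The first principal component held 54.4% of the variance. On it, ND + hIRI replicate 1 scored -26.0, among the sham kidneys, and the other ND + hIRI kidneys scored 15.7 and 22.5. HFD + hIRI replicate 1 scored 97.4, far above the other HFD + hIRI kidneys at 44.9 and 19.4. The hIRI groups thus overlapped on this component. The results are also given without both of these replicate 1 libraries. They are the ND + hIRI kidney that lay nearest to the shams and the HFD + hIRI kidney that lay farthest from them. Leaving both out therefore favors a larger ND and a smaller HFD response by the choice itself. So a smaller interaction without them does not test by itself whether a result is stable. For a negative interaction the same choice favors a more negative value, so its larger size without them is no test either. The median interaction went from -0.957 to -1.74 for interferon-stimulated genes and from -0.363 to -1.85 for neutrophil genes. By the number in its name, each library belongs to a lower or a higher range of numbers, here called runs, with 4 libraries in the lower run. These 4 are replicate 1 of both ND groups and replicates 1 and 2 of HFD + sham, so no HFD + hIRI library is among them. The labels do not say that a run is a batch. Kidney identity was clear in every library, with the proximal tubule list at a summed 39200 to 67900 CPM, the count of a gene scaled to the size of its library, and the distal nephron list at 9030 to 12700 CPM. In whole kidney, fewer cells of a type and less RNA per cell cannot be told apart.

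Fgb and Vdr were the 2 genes whose response to hIRI differed between the diets. Fgb, which encodes the beta chain of fibrinogen, responded more strongly on HFD, by 4.90 on the log2 scale. Vdr, which encodes the nuclear receptor for active vitamin D, fell on HFD and had a positive response estimate on ND, a difference of -1.09. With edgeR's quasi-likelihood test and Benjamini-Hochberg adjustment over all genes, these were the calls at an adjusted p under 0.05, or 0.0142% of the 14091 genes tested, with 1 higher (0.0071%) and 1 lower (0.0071%). The next smallest adjusted p was 0.486, shared by 1098 genes.

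At an unadjusted p under 0.05 the interaction took in 1429 genes, 10.1% of those tested, where 5% is expected with no difference anywhere. Of these, 816 genes (5.79% of all tested) had the higher response estimate on HFD and 613 (4.35%) the lower. The balance of the directions depended on how libraries were scaled. It was 518 higher and 809 lower with upper quartile scaling, and 396 higher and 965 lower with library totals alone. Those scalings moved the median interaction of all genes by -0.08 and -0.12 on the log2 scale. Genes below are described by their values at this unadjusted level unless an adjusted p is named, and "rose" and "fell" are kept for adjusted calls.

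The responses that the interaction subtracts differed in how many genes passed. On HFD, 2801 genes (19.9%) passed the adjusted test, 1607 (11.4%) rising and 1194 (8.47%) falling, a split that was 1052 and 1621 with upper quartile scaling and 852 and 2112 with library totals alone. On ND, 0 genes passed with edgeR's quasi-likelihood test, while 2030 genes (14.4%) had an unadjusted p under 0.05, 1160 higher (8.23%) and 870 lower (6.17%). The unadjusted share on HFD was 39.8%, with 21.4% higher and 18.4% lower. DESeq2 called 444 genes on ND, the edgeR likelihood ratio test 340, limma voom 0 and limma voom with sample quality weights 696. Without ND + hIRI replicate 1 the quasi-likelihood count on ND was 531, and without HFD + hIRI replicate 1, which alters the shared spread, it was 88. The HFD count moved between 1 and 4742 as single libraries were left out. Leaving out HFD + sham replicate 1 gave 276, replicate 2 gave 1 and replicate 3 gave 45. Leaving out HFD + hIRI replicate 1 gave 1100, replicate 2 gave 1404 and replicate 3 gave 4742. With the number run as a covariate it was 18, and within the higher run, with its single HFD + sham kidney, it was 0. A count that passed on 1 diet alone is not a difference between diets, and the interaction test is the one that bears on that.

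Across the 14091 genes the responses on both diets, which share no library, ran in parallel. Pearson's r was 0.686 and Spearman's rho 0.637, as a description across genes that are not independent. The slope of the HFD response on the ND response was 1.02, and 73.1% of genes had the same sign on both diets. The SD of the response over genes was 0.719 on HFD and 0.486 on ND. Genes chosen on 1 diet were then read on the other. The 1607 genes that rose on HFD had a median response of 0.72 there and 0.25 on ND, where 90.4% were positive. By library, their median was 0.07, 0.28 and 0.37 in the 3 ND + hIRI kidneys and 1.01, 0.64 and 0.39 in the 3 HFD + hIRI kidneys, so the ND + hIRI kidney with the largest value lay just under the HFD + hIRI kidney with the smallest. The 1194 genes that fell on HFD had a median of -0.89 there and -0.33 on ND. Read the other way, the 1160 genes with higher estimates on ND at an unadjusted p under 0.05 had a median of 0.65 on ND and 0.49 on HFD. The group chosen on a diet has its larger median on that diet in each direction, which the choice itself favors.

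**Figure D1:**
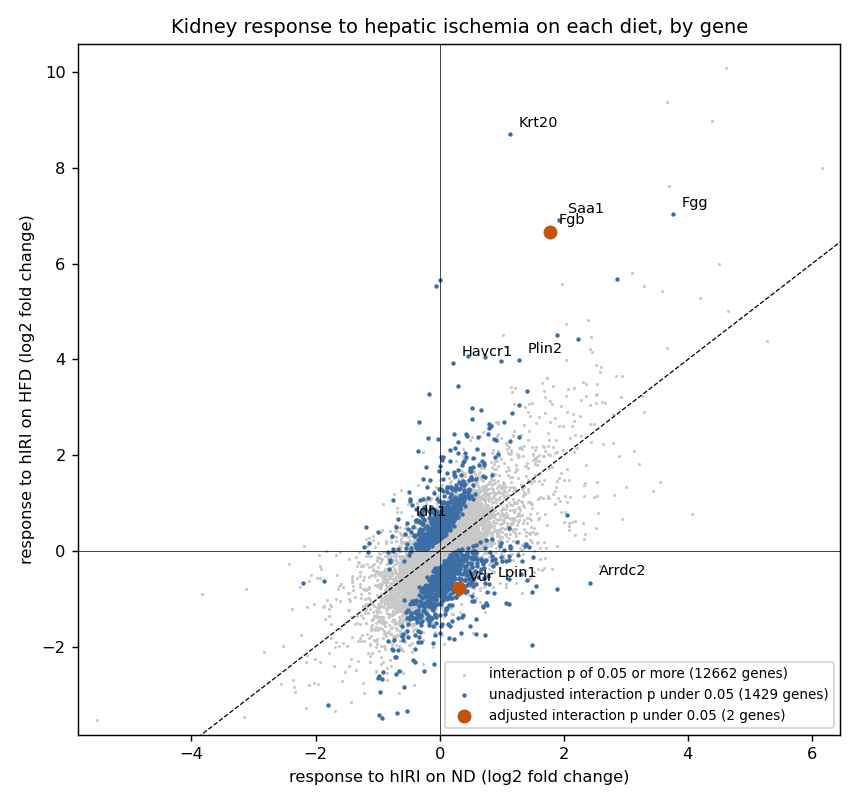
Response to hIRI of each of the 14091 genes on ND (horizontal axis) and on HFD (vertical axis), as log2 fold changes against the sham kidneys of the same diet; the dashed line marks equal responses. The 1429 genes with an unadjusted interaction p under 0.05 are blue, and Fgb, far above the line, and Vdr, below it, are the 2 orange points with an adjusted p under 0.05.

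Genes were sorted by the signs and sizes of both response estimates. Of the 1429 genes, 380 had positive estimates on both diets with the larger on HFD, and their median was 0.15 on ND and 0.79 on HFD. A further 238 had negative estimates on both diets with the larger size on HFD, at medians of -0.18 and -1.02. The estimates had opposite signs in 426 genes (29.8%) that were positive on HFD, with medians of -0.12 on ND and 0.33 on HFD, and in 353 genes (24.7%) that were negative on HFD, with medians of 0.22 and -0.45. In 22 genes both estimates were positive and the HFD one was smaller, at medians of 0.91 on ND and 0.10 on HFD. In 10 genes both were negative and the HFD one was nearer to 0, at -0.81 and -0.20. Among all genes tested, 25.9% fell in the first class, 27.2% in the second, 13.5% in each class of opposite signs and 10.1% and 9.84% in the last 2, which made up 1.54% and 0.7% of the 1429. These class counts moved with the libraries and the scaling. Without both replicate 1 libraries the last 2 classes held 238 and 86 genes, and without ND + hIRI replicate 1 alone 109 and 34. Without HFD + hIRI replicate 3 the first 2 held 1007 and 719, and with library totals alone the genes of opposite sign that were positive on HFD numbered 202. Over all single left-out libraries the 6 classes, in the order given, ranged over 194 to 1007, 111 to 719, 226 to 570, 238 to 530, 9 to 109 and 3 to 34 genes. The difference between the diets was larger in the hIRI kidneys than in the sham kidneys for 1134 of the 1429 genes (79.4%), against 67.2% of all genes.

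Fibrinogen is a soluble clotting protein built from alpha, beta and gamma chains encoded by Fga, Fgb and Fgg, which lie side by side in the genome. The liver is its main source, and injured tubular epithelium is known to make the chains too. In the table's mm10 coordinates the genes occupy chr3:83026153-83033617 on the plus strand (Fga), chr3:83042305-83049790 on the minus strand (Fgb) and chr3:83007896-83015049 on the plus strand (Fgg). Their start regions are shown because the 3 chains were among the genes with the highest response estimates on HFD and only the beta chain passed the interaction test. The sequences are the 250 bases before the RefSeq start site on GRCm38.p6, read 5′ to 3′ along the gene, with matches to 5 short motifs in capitals.
Fgb, chr3:83049864-83050113, minus strand: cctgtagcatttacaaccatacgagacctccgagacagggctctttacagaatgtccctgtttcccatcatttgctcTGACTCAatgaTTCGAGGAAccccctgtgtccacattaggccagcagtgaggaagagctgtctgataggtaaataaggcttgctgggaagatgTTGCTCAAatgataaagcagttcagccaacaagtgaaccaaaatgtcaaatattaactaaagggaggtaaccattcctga
Fga, chr3:83025903-83026152, plus strand: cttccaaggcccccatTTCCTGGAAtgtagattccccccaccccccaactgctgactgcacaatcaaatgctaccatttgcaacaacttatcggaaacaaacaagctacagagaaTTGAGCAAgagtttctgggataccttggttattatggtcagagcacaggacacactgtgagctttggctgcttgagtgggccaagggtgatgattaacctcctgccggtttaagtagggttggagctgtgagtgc
Fgg, chr3:83007474-83007723, plus strand: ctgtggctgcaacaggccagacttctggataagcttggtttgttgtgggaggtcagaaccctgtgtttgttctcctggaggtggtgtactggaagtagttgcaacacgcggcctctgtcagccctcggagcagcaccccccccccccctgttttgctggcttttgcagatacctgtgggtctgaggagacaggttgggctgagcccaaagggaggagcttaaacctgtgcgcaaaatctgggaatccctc

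The motifs, searched on both strands, were TTCNNNGAA, the spaced palindrome that STAT factors bind, TTGCNNAA, a form of the C/EBP site, TGANTCA, the AP-1 site, GGG and TTCC with NNN between them, a form of the NF-kB site, and TGACNNNGC, a form of the antioxidant response element. The Fgb window held TGACTCA starting 173 bases before the start site, TTCGAGGAA at 162 bases and TTGCTCAA at 80 bases. The Fga window held TTCCTGGAA at 234 bases and, on the other strand, a C/EBP form written TTGAGCAA at 135 bases. None of the 5 was found in the Fgg window or in that of Vdr. The windows of Fga and Vdr adjoin the deposited gene coordinates, while those of Fgb and Fgg stop short of them at the RefSeq start site. The bases between were not searched, so the windows of the chains are not placed alike. Among 27025 promoters of the same length, TTCNNNGAA occurred in 7.18%, TTGCNNAA in 9.55% and TGANTCA in 6.87%. These matches describe the letters and were not tested as binding sites.

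Fgb was at 3.46, 2.32 and 2.73 CPM in ND + sham, 6.30, 9.69 and 13.2 CPM in ND + hIRI, 2.99, 2.44 and 3.07 in HFD + sham and 470.3, 266.2 and 132.5 CPM in HFD + hIRI. Every HFD + hIRI kidney lay above every other kidney, and the sham groups overlapped. The response was 1.77 ± 0.43 (log2, SE) on ND and 6.67 ± 0.49 on HFD. The interaction of 4.90 ± 0.61 had a 95% confidence interval of 3.56 to 6.24 and an adjusted p of 0.0461 in edgeR.

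Fga and Fgg showed larger spreads among the ND + hIRI kidneys. Fga was at 38.4 to 60.6 CPM in ND + sham, 65.9, 872.6 and 708.7 CPM in ND + hIRI, 52.7 to 110.0 CPM in HFD + sham and 4161, 3291 and 2282 CPM in HFD + hIRI. Its interaction was 1.84 ± 0.94 (edgeR, adjusted p = 0.518), with an interval of -0.24 to 3.92. Fgg was at 10.7 to 20.3 CPM in ND + sham, 19.9, 208.1 and 339.0 CPM in ND + hIRI, 12.9 to 23.4 CPM in HFD + sham and 2747, 2377 and 1345 CPM in HFD + hIRI. Its interaction was 3.27 ± 1.03 (adjusted p = 0.486). For Fgg, ND + hIRI replicate 1 lay within the ND + sham range and for Fga just above it, while the other ND + hIRI kidneys were far above and the HFD + hIRI kidneys highest. Both rose on HFD, by 5.42 (Fga) and 7.03 (Fgg) on the log2 scale (adjusted p of 0.0114 and 0.0096). Of the hepatocyte markers, Alb was at 15.5 to 18.4 CPM in HFD + hIRI, within the 13.9 to 21.5 CPM of HFD + sham, Apoa1 at 0.77 to 2.81 CPM and Ttr at 172 to 262 CPM, and the 12 measured genes of the list summed to 482 to 535 CPM against 319 to 532 CPM in HFD + sham.

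Vdr lies at chr15:97854427-97908296 on the minus strand. The receptor pairs with retinoid X receptors to switch on genes of calcium and phosphate handling, and in the kidney it is found mainly in tubular epithelium. Its level was 349.9, 294.6 and 292.0 CPM in ND + sham, 389.2, 367.8 and 410.4 CPM in ND + hIRI, 288.3, 293.7 and 268.7 in HFD + sham and 179.2, 157.2 and 162.1 CPM in HFD + hIRI. The ND + hIRI kidneys were the highest of all 12 and the HFD + hIRI kidneys the lowest, with no overlap. The response was 0.32 ± 0.10 on ND, where no gene passed, and fell by 0.77 ± 0.10 on HFD (edgeR, adjusted p = 0.0096). The interaction of -1.09 ± 0.14 had a 95% confidence interval of -1.39 to -0.79 and an adjusted p of 0.0461. The proximal tubule list, as a whole, had a median interaction of -0.19, and its summed level was 39200 to 48400 CPM in HFD + hIRI against 51600 to 54200 CPM in HFD + sham. The part of that lower level in the Vdr value was not tested.

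**Figure D2:**
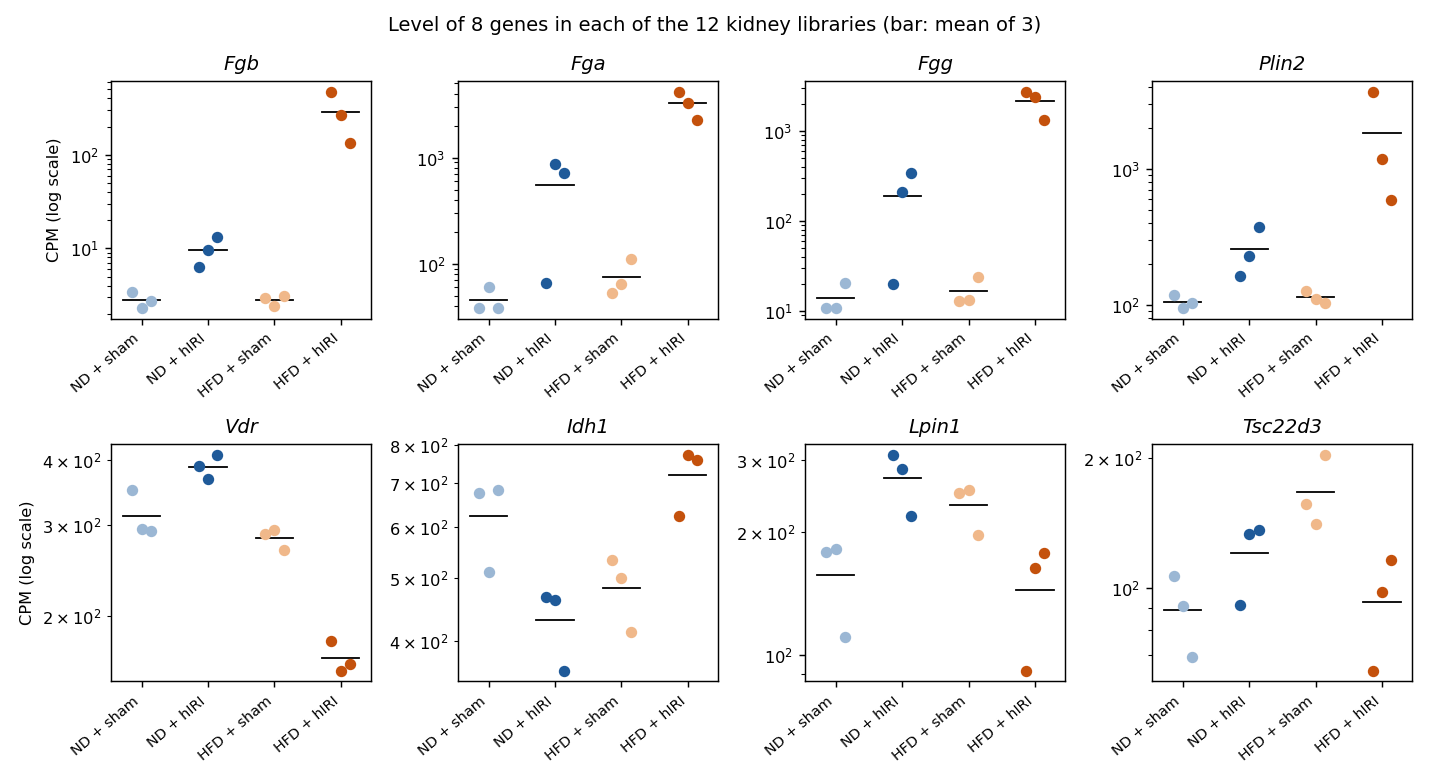
Level of 8 genes in each kidney library, in CPM on a log axis, with points for the 3 mice of each group and a bar at their mean. Fgb, Fga, Fgg and Plin2 were highest in HFD + hIRI, Vdr was highest in ND + hIRI at 367.8 to 410.4 CPM and lowest in HFD + hIRI at 157.2 to 179.2 CPM, and Idh1, Lpin1 and Tsc22d3 had response estimates of opposite sign on the 2 diets.

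The estimates for Fgb and Vdr held their direction in all 28 alternative fits, but their calls did not. Fgb ranged from 4.12 to 5.25 and passed in 12 of the 28, and Vdr ranged from -1.21 to -1.01 and passed in 11. The fit without the filter on low counts is among the 28 and repeats the reported fit, since the filter removed 0 genes. Both Fgb and Vdr passed when HFD + hIRI replicate 1 was left out, when replicate 1 of both hIRI groups was left out, and with DESeq2. Neither passed with limma voom, where 0 genes did and the smallest adjusted p was 0.0721, or when any ND + sham, ND + hIRI or HFD + sham library or HFD + hIRI replicate 2 was left out. Without HFD + hIRI replicate 3, Fgb alone passed. With the number run as a covariate the estimates were 4.79 (Fgb) and -1.01 (Vdr), and within the higher run they were 4.38 and -1.10, with 0 calls in either fit.

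**Figure D3:**
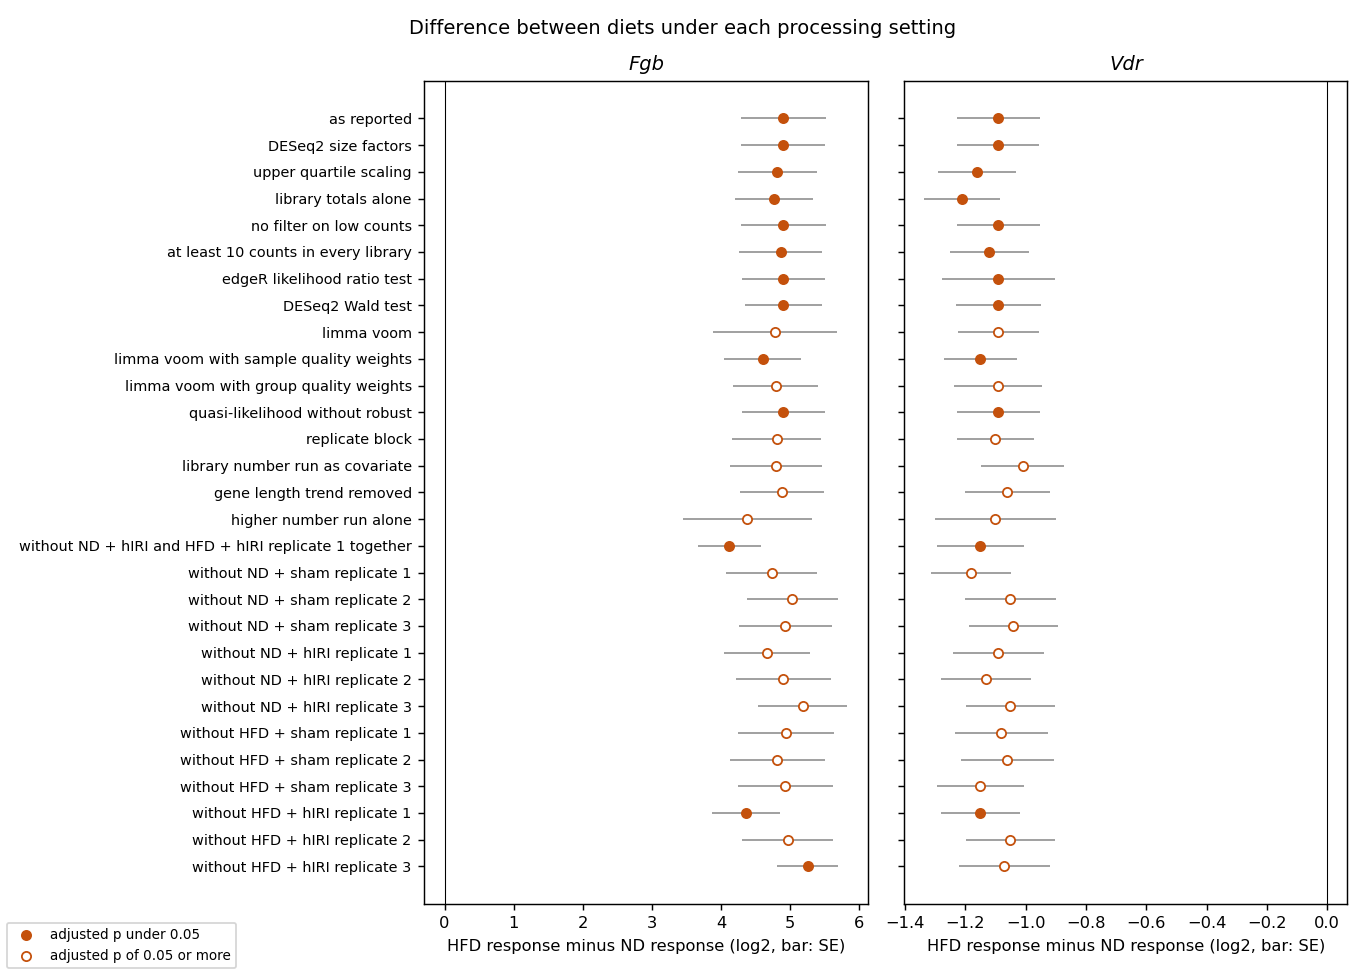
Interaction of Fgb and Vdr (HFD response minus ND response, log2, with SE bars) as reported and under 28 alternative fits, with filled points where the adjusted p was under 0.05. Fgb stayed between 4.12 and 5.25 and Vdr between -1.21 and -1.01, while the adjusted p crossed 0.05 in many fits.

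Other fits called further genes, and these are named here after their values were seen. The edgeR likelihood ratio test passed 8 genes, Fgb, Vdr, Pear1, Chst11, Hmgb3, Idh1, Saa1 and Fh1, and limma voom with sample quality weights passed Vdr, Fgb, Stat5b and Pear1. Pear1, a receptor of platelets and endothelium that signals on cell contact, was at 28.4 to 34.9 CPM in ND + sham, 54.9 to 108.5 CPM in ND + hIRI, 57.7 to 65.9 CPM in HFD + sham and 45.7 to 59.8 CPM in HFD + hIRI (interaction -1.53 ± 0.29). Its ND + hIRI values all exceeded ND + sham, whereas HFD + hIRI and HFD + sham overlapped. Stat5b, which carries growth hormone and cytokine signals to the nucleus, had 46.9 to 50.9, 56.6 to 63.4, 63.4 to 67.3 and 46.6 to 55.5 CPM in these 4 groups, with every HFD + hIRI kidney below every HFD + sham kidney. Both genes were already higher in HFD + sham than in any ND + sham kidney. Fh1, the fumarase of the tricarboxylic acid cycle, was at 207.5 to 229.7 CPM in ND + sham, 209.1 to 307.6 CPM in ND + hIRI, 240.8 to 247.2 CPM in HFD + sham and 503.3 to 763.2 CPM in HFD + hIRI. Chst11, a chondroitin sulfotransferase, was at 102.6 to 124.1 CPM in ND + hIRI against 173.1 to 270.0 CPM in HFD + hIRI, and Hmgb3, a chromatin protein, at 23.9 to 29.3 and 35.2 to 45.9 CPM. All of Fh1, Chst11 and Hmgb3 rose on HFD.

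The 12 genes named for the higher response on HFD (Saa1, Fgb, Havcr1, Fgg, Lrp8, Sox9, Plin2, Kcne4, Cbr3, F3, Srxn1 and Lrg1) were chosen for size, an unadjusted p under 0.05 and no overlap between the 3 HFD and the 3 ND responses. They had interactions from 2.21 to 4.99, and all 12 rose on HFD, where 11.4% of all genes did. The choice itself favors a high HFD response. Responses did not overlap for 3319 of all 14091 genes (23.6%), with HFD above ND in 1754 (12.4%) and below in 1565 (11.1%). HFD + hIRI replicate 1 had the largest response of the HFD + hIRI kidneys in all 12.

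Saa1, the acute phase protein serum amyloid A, was at 0.67 to 1.99 CPM in ND + sham, 2.46, 4.77 and 5.57 CPM in ND + hIRI, 0.13 to 1.51 CPM in HFD + sham and 173.0, 65.3 and 24.3 CPM in HFD + hIRI (interaction 4.99 ± 1.21). Each HFD + hIRI kidney was above each ND + hIRI kidney. Its near copy Saa2, with which it may share reads, was at 60.1, 6.27 and 1.57 CPM in HFD + hIRI and at most 1.94 CPM in ND + hIRI. Lrg1, a secreted glycoprotein of the acute phase, was at 11.9, 34.9 and 35.2 CPM in ND + hIRI against 400.1, 169.9 and 73.4 CPM in HFD + hIRI. Over the 25 acute phase genes measured, 5 had the higher HFD response and 0 the lower at an unadjusted p under 0.05. Among all genes 5.79% and 4.35% did. Yet the list's median response was 1.45 on ND and 1.46 on HFD. The median interaction of the list was 0.33, and -0.10 without the replicate 1 libraries of both hIRI groups.

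Havcr1, the tubular injury marker KIM-1, was at 1.31, 4.26 and 6.43 CPM in ND + hIRI against 92.5, 18.6 and 6.41 CPM in HFD + hIRI, against 2.13 to 3.62 CPM in the 6 sham kidneys. The levels of ND + hIRI and HFD + hIRI overlapped, although the responses against each diet's own sham mean did not. Sox9, a transcription factor of repairing tubules, was at 2.06, 2.90 and 14.9 CPM in ND + hIRI against 152.3, 55.9 and 32.1 CPM in HFD + hIRI. Spp1, which encodes osteopontin, was at 805.6, 2689 and 3992 CPM in ND + hIRI and at 4157 CPM or more in each HFD + hIRI kidney. Krt20, a keratin of injured tubule cells, had the estimate of 7.59 ± 2.81, which rested on HFD + hIRI replicate 1 at 1421 CPM, since the others were at 10.9 and 3.83 CPM. Of 28 tubular injury and repair genes measured, 20 rose on HFD, where 11.4% of all genes did. At an unadjusted p under 0.05, 7 had the higher HFD response and 0 the lower, where 5.79% and 4.35% of all genes did. The median of the list was 1.20 on ND and 2.63 on HFD. Its median interaction of 1.17 was 0.60 within the higher number run and 0.10 without both replicate 1 libraries.

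**Figure D4:**
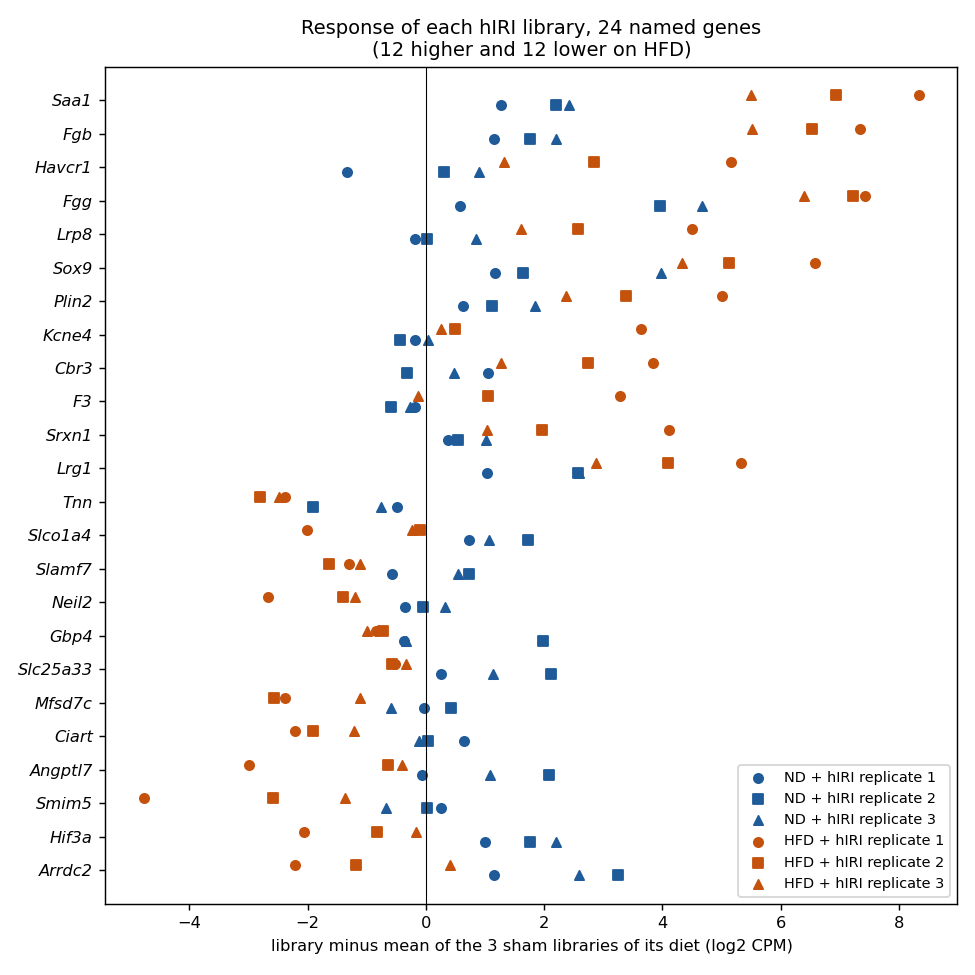
Response of each hIRI library, as log2 CPM minus the mean of the 3 sham libraries of its diet, for the 12 named genes with the higher and the 12 with the lower response on HFD. ND + hIRI kidneys are blue and HFD + hIRI kidneys orange, and in the upper 12 genes HFD + hIRI replicate 1 (orange circles) lay farthest right in each.

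NRF2 target genes, which supply glutathione and detoxify reactive compounds, held the largest share of members past the unadjusted level with the higher response on HFD. Of 26 measured, 10 had the higher HFD response and 0 the lower, where 5.79% and 4.35% of all genes did. On HFD 14 of the 26 rose, where 11.4% of all genes did. The list's median response was 0.14 on ND and 0.67 on HFD. Mgst1, a membrane-bound glutathione transferase, was at 77.2 to 153.7 CPM in ND + sham, 78.0 to 120.7 CPM in ND + hIRI, 119.7 to 122.1 CPM in HFD + sham and 413.3, 272.5 and 221.9 CPM in HFD + hIRI (interaction 1.54 ± 0.39). Gclc, the catalytic subunit of the enzyme that limits glutathione synthesis, was at 245.4, 469.4 and 379.8 CPM in ND + hIRI against 1906, 959.3 and 446.1 CPM in HFD + hIRI. Nqo1, a quinone reductase, had an interaction of 1.22 ± 0.39, Cbr3, a carbonyl reductase, of 2.47 ± 0.79, and Srxn1, which repairs peroxiredoxins, of 2.29 ± 0.83. The median interaction of 0.48 was 0.20 without both replicate 1 libraries.

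Ferroptosis is a death of cells by iron-driven lipid peroxidation. Of 22 of its genes measured, 5 had the higher HFD response at an unadjusted p under 0.05 and 0 the lower, where 5.79% and 4.35% of all genes did, and 10 rose on HFD, where 11.4% of all genes did. The median interaction of 0.30 was 0.0748 without both replicate 1 libraries. Acsl4, which loads polyunsaturated fatty acids into phospholipids, was at 109.4 to 172.6 CPM in ND + hIRI against 568.9, 341.5 and 233.5 CPM in HFD + hIRI. Tfrc, the transferrin receptor, was at 97.7 to 114.3 CPM in ND + sham, 131.0, 39.4 and 56.2 CPM in ND + hIRI, 124.1 to 169.4 CPM in HFD + sham and 439.8, 237.2 and 228.8 CPM in HFD + hIRI. Its ND + hIRI kidneys split, with replicates 2 and 3 below every sham kidney, and the HFD + hIRI kidneys were above all others. Slc40a1, the iron exporter ferroportin, had an interaction of 0.71 ± 0.26, so the importer and the exporter both had the higher estimate on HFD. Slc30a2, a zinc transporter, differed in direction from them at -1.22 ± 0.44.

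Lipid storage genes were divided. Plin2, the coat protein of lipid droplets, was at 95.5 to 117.9 CPM in ND + sham, 163.6, 227.4 and 376.5 CPM in ND + hIRI, 103.0 to 126.9 CPM in HFD + sham and 3660, 1185 and 589.9 CPM in HFD + hIRI (interaction 2.72 ± 0.75). The 12-week diet alone left Plin2 within the range of ND + sham apart from 1 kidney. Acly, which makes cytosolic acetyl-CoA, had close replicates at 688.1 to 804.2 CPM in HFD + hIRI against 266.0 to 344.1 CPM in HFD + sham and 219.2 to 334.2 CPM in ND + hIRI. Apob, the structural protein of lipoproteins, was at 1293 to 1429 CPM in HFD + hIRI and 477.4 to 829.2 CPM in ND + hIRI. Lpin1, a phosphatidate phosphatase that also acts in the nucleus, went the other way at 309.7, 284.9 and 219.0 CPM in ND + hIRI against 91.6, 163.7 and 178.1 CPM in HFD + hIRI (interaction -1.48 ± 0.37), and Fads1, a fatty acid desaturase, had -0.52 ± 0.22. In all, 7 of 35 lipid droplet and lipid synthesis genes had the higher response on HFD at an unadjusted p under 0.05 and 2 the lower. Among all genes 5.79% and 4.35% did.

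Responses of opposite sign were rarely clear. With each response past 0.5 on the log2 scale and past an unadjusted p of 0.05, 6 of the 1429 genes qualified, 2 positive on HFD (Idh1 and Utp14b) and 4 negative on HFD (Lpin1, Adarb1, Gad1 and Myom1). Idh1, the cytosolic isocitrate dehydrogenase that makes NADPH, was at 676.9, 510.8 and 682.5 CPM in ND + sham, 468.0, 463.6 and 360.8 CPM in ND + hIRI, 533.2, 501.3 and 413.1 in HFD + sham and 623.0, 774.2 and 760.7 CPM in HFD + hIRI. The hIRI groups lay on opposite sides of their own shams without overlap, and the interaction was 1.11 ± 0.22 (edgeR, adjusted p = 0.486). Adarb1, an RNA-editing deaminase, averaged 17.4 ± 2.42 CPM (SD, n = 3) in ND + sham, 28.6 ± 8.09 CPM in ND + hIRI, 23.3 ± 0.429 CPM in HFD + sham and 15.8 ± 4.06 CPM in HFD + hIRI, and the hIRI kidneys overlapped with their own shams on neither diet. Gad1, the glutamate decarboxylase, stayed at or under 2.07 CPM in every library, so its estimate of -3.46 ± 0.84 rests on few reads. Utp14b (interaction 1.34), a ribosome biogenesis factor, and Myom1 (-1.08), a muscle M-band protein, were at or under 3.75 CPM.

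Among the named genes with opposite signs and a positive HFD response, Slc22a23, an orphan organic ion transporter, was lower in HFD + sham (45.2 to 58.9 CPM) than in ND + sham (68.4 to 96.5 CPM) and came to 75.0, 77.0 and 131.9 CPM in HFD + hIRI. Uxs1, which makes UDP-xylose, was at 30.7 to 38.7 CPM in ND + hIRI against 38.1 to 74.3 CPM in HFD + hIRI. Tmem158, Mcoln2, Rfc3 and Sntb1 had interactions of 1.20, 1.72, 0.97 and 1.41 at levels mostly under 10 CPM, and Mcoln2 had overlapping responses. Of the 8 named genes of this kind 2 rose on HFD, Idh1 and Slc22a23, where 11.4% of all genes did. Of the 8 named genes with a negative HFD estimate and a positive ND one, 0 passed the HFD test by edgeR. Among all genes, 8.47% fell on HFD.

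Another 12 genes were named for the lower response on HFD by the same measures, with interactions from -3.08 to -1.64. Of these 12, 6 fell on HFD, where 8.47% of all genes did, and the choice itself favors a low HFD response. Arrdc2, an arrestin-domain protein, was the lowest of the 12 at -3.08 ± 0.97. It was at 19.2, 11.1 and 5.88 CPM in ND + sham, 24.2, 103.2 and 65.5 CPM in ND + hIRI, 43.8, 22.2 and 43.5 in HFD + sham and 7.44, 15.4 and 46.3 CPM in HFD + hIRI. Its level in HFD + sham was above that in ND + sham, by 1.60 on the log2 scale, and the HFD + hIRI kidneys were widely spread. Hif3a, a hypoxia-inducible factor subunit, showed a like pattern at 6.18 to 14.3 CPM in ND + hIRI against 1.76 to 6.69 CPM in HFD + hIRI. Angptl7, a secreted angiopoietin-like protein, was at 23.2, 102.7 and 51.6 CPM in ND + hIRI against 3.56, 18.5 and 21.9 CPM in HFD + hIRI, and Slc25a33, a mitochondrial pyrimidine nucleotide carrier, had an interaction of -1.79 ± 0.54. Smim5, Ciart, Mfsd7c, Neil2, Slamf7 and Tnn fell on HFD, with ND estimates from -0.11 (Mfsd7c) to 0.30 (Slamf7) apart from Tnn at -0.97. Ciart, a repressor of the circadian clock, was at 7.01 to 11.9 CPM in ND + hIRI against 1.91 to 3.92 CPM in HFD + hIRI. Tnn, tenascin N of the extracellular matrix, was at 3.60 to 9.83 CPM in ND + hIRI against 1.88 to 2.53 CPM in HFD + hIRI.

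Glucocorticoid-induced genes are a readout of stress hormone. Their median response was 1.46 on ND and 0.89 on HFD. The summed level of the list was nonetheless highest in HFD + hIRI, at 6150 to 12500 CPM against 2920 to 5820 CPM in ND + hIRI. It was 3300 to 3720 CPM in HFD + sham and 1530 to 2510 CPM in ND + sham. At an unadjusted p under 0.05, 16 of 19 had a higher estimate on ND, where 8.23% of all genes did. On HFD 7 rose and 1 fell at an adjusted p under 0.05, where 11.4% and 8.47% of all genes did. On ND 0 genes passed at that level, so the counts on the diets are at unlike thresholds and cannot be compared. The median interaction was -0.29, and -0.78 without both replicate 1 libraries, a shift that the choice of those libraries favors. Tsc22d3, the gene that fell, encodes GILZ and was the 1 member past the unadjusted interaction level. It was at 69.1 to 106.5 CPM in ND + sham, 91.3 to 136.4 CPM in ND + hIRI, 140.4 to 203.4 CPM in HFD + sham and 64.4 to 116.2 CPM in HFD + hIRI, and it fell on HFD by 0.84 (adjusted p = 0.0377). HFD + sham stood above every other group. Klf2, a flow-responsive transcription factor of endothelium, was likewise at 29.8 to 31.9 CPM in HFD + sham against 12.2 to 20.0 CPM in ND + sham, and at 25.8 to 38.0 CPM in ND + hIRI against 22.8 to 31.3 CPM in HFD + hIRI (interaction -1.16 ± 0.28). Pck1, the gluconeogenic enzyme PEPCK, was at 2354, 7985 and 8255 CPM in HFD + hIRI, so its interaction of -1.30 ± 0.53 leaned on replicate 1.

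Genes whose estimates were positive on both diets and smaller on HFD were named by the smallest p, and they were Grasp, Tob2, Tsku, Trak1, Mapk8ip3, Jade2, Foxo1 and Pim3. The difference between the sham groups is part of the interaction, so this choice favors genes that are higher in HFD + sham than in ND + sham, and their sham levels are a description. Foxo1, a transcription factor of fasting and insulin signaling, was at 57.2 to 68.2 CPM in ND + sham, 85.0 to 116.9 CPM in ND + hIRI, 87.6 to 93.7 CPM in HFD + sham and 90.4 to 103.9 CPM in HFD + hIRI. Tob2, an antiproliferative factor, was at 59.8 to 79.3, 116.6 to 182.2, 111.1 to 134.2 and 90.9 to 154.8 CPM in the same order. In both genes the ND + sham kidneys were below all others, and the 3 other groups overlapped. The genes with negative estimates on both diets and the smaller size on HFD were Ccser2, Lipa, Itgb6, Pkia, Lamb3, Tnfrsf11a, Akr1c21 and Fabp5, a choice that in the same way favors a lower level in HFD + sham. Lipa, the lysosomal acid lipase, was at 313.4 CPM or more in ND + sham, 237.9 to 257.9 CPM in ND + hIRI, 214.0 to 273.7 CPM in HFD + sham and 209.1 to 254.0 CPM in HFD + hIRI. Akr1c21, an aldo-keto reductase, was at 1408 to 1959 CPM in ND + sham and between 1022 and 1316 CPM elsewhere.

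Cell death and inflammatory signaling lists held few genes past the unadjusted level, where 5.79% of all genes had the higher response and 4.35% the lower. In the extrinsic apoptosis list 10 of 24 rose on HFD, where 11.4% of all genes did. Of the 24, 2 had the higher HFD response, Casp8, the initiator caspase, at 0.85 ± 0.31, and Ltbr, the lymphotoxin receptor, at 0.60 ± 0.18. In the p53 list 3 of 24 did, among them Perp, an apoptosis effector of the membrane, at 0.52 ± 0.14, and Plk2 at 1.19 ± 0.50. In the NF-kB list it was Chuk, an IkB kinase, at 0.59 ± 0.20, 1 of 21, and in the IL-6 family list Socs2, a suppressor of cytokine signaling, at 1.94 ± 0.83, also 1 of 21. Immediate early genes had high medians on both diets, 1.65 on ND and 2.11 on HFD, and Klf2 was the 1 of 27 past the unadjusted level. Among 22 EGF receptor ligand and feedback genes, 2 had the higher response, the ligand Nrg1 at 1.63 ± 0.62 and Phlda1 at 1.98 ± 0.83. Without both replicate 1 libraries, the median interaction turned negative for the NF-kB list (0.36 to -0.32), the immediate early list (0.51 to -0.34), the IL-6 family list (0.33 to -0.11), the extrinsic apoptosis list (0.21 to -0.04) and the EGF receptor list (0.21 to -0.13). The p53 list kept 0.01 of its 0.30. In the unfolded protein list 0 of 27 passed, and the 1 heat shock gene past the level was Hsph1, a chaperone, at -0.49 ± 0.16.

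Coagulation and complement genes past the unadjusted level beyond fibrinogen were few, where 5.79% of all genes had the higher response and 4.35% the lower. F3, tissue factor, the starter of clotting, was at 144.0, 30.4 and 13.4 CPM in HFD + hIRI and 13.5 to 17.9 CPM in ND + hIRI, so its estimate of 2.44 ± 0.89 rested on HFD + hIRI replicates 1 and 2. Klkb1, plasma prekallikrein, had -1.33 ± 0.42 at levels under 4 CPM on average in each group. The complement genes past the unadjusted level, C1s1 (-0.50 ± 0.18) and Serping1 (-0.55 ± 0.21), the C1 protease and its inhibitor, were 2 of 25. Their response estimates were lower on HFD, while their hIRI levels differed between the diets by -0.01 (C1s1) and 0.05 (Serping1) on the log2 scale and HFD + sham was above ND + sham by 0.49 and 0.60. The median of the coagulation list was 0.08, and it turned negative with upper quartile scaling (-0.00373), with library totals alone (-0.0494) and without both replicate 1 libraries (-0.0957).

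Interferon-stimulated genes had the most negative median interaction of the 42 lists, -0.96, and 31 of 32 had a negative estimate. The high values came from 1 mouse. By library, the list's median response was -0.14, 2.04 and 0.30 in ND + hIRI, and the summed level ran from 326 to 1500 CPM there against 332 to 608 CPM in HFD + hIRI. Ifit1, an RNA sensor, was at 4.48, 89.6 and 8.36 CPM in ND + hIRI. Without ND + hIRI replicate 2 the median was 0.09. The members past the unadjusted level were the guanylate-binding proteins Gbp10 (-2.33 ± 0.84) and Gbp4 (-1.75 ± 0.76), 2 of 32, where 4.35% of all genes had the lower response. Gbp4 was at 4.04, 20.9 and 4.13 CPM in ND + hIRI against 2.72 to 3.29 CPM in HFD + hIRI. In ND + hIRI replicate 2 the adipocyte markers Adipoq, Plin1 and Cfd had 0 counts, and Adipoq was at 22.5 CPM in ND + sham replicate 2.

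Class II antigen presentation genes had lower response estimates on HFD, where their sham level was higher. H2-Ab1 was at 64.5 to 71.7 CPM in ND + sham, 52.0 to 107.7 CPM in ND + hIRI, 82.9 to 147.2 CPM in HFD + sham and 58.9 to 85.1 CPM in HFD + hIRI (interaction -0.94 ± 0.38). H2-Eb1 (-1.06 ± 0.44) and Cd74 (-0.93 ± 0.39) did likewise, making 3 of 17 with the lower and 0 with the higher response. Among all genes, 4.35% had the lower and 5.79% the higher. HFD + sham replicate 3 was the highest for H2-Ab1, and it was also the highest for the macrophage gene Lyz2 at 147.6 CPM, against 18.5 to 72.5 CPM in the other 11 kidneys. The 20 macrophage genes had a median interaction of -0.38 with 0 past the unadjusted level, and a summed level of 307 to 650 CPM in HFD + sham and 304 to 622 CPM in HFD + hIRI. The part of the macrophage level in the antigen presentation values was not tested. Neutrophil genes (14 measured) and chemokines (18 measured) had 0 members past the level, with medians of -0.36 and -0.28. The neutrophil median was 0.0488 and 0.0825 without ND + hIRI replicates 2 and 3, 0.814 without HFD + sham replicate 3, 0.0626 without HFD + hIRI replicate 3 and -1.85 without both replicate 1 libraries, and the chemokine median was 0.00517 without ND + hIRI replicate 2. Of 8 lymphocyte genes, Cd8a, a T cell coreceptor, had -1.59 ± 0.64 at under 1 CPM on average.

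Of the tubule transport lists, 3 of 30 distal nephron genes and 1 of 36 proximal tubule genes had the lower response on HFD and 0 the higher. Among all genes, 4.35% had the lower and 5.79% the higher. On HFD, 9 distal nephron genes fell and 2 rose, and 4 proximal tubule genes fell and 0 rose. Of all genes, 8.47% fell and 11.4% rose on HFD. Kcnj1, the ROMK potassium channel, was at 196.1 to 217.4 CPM in ND + hIRI against 91.9, 79.8 and 148.4 CPM in HFD + hIRI, and Wnk1, a kinase that regulates salt transport, had -0.62 ± 0.24. Slc4a1, the anion exchanger of acid-secreting intercalated cells and red cells, was at 45.5, 7.11 and 4.56 CPM in ND + hIRI against 4.18, 1.49 and 6.55 CPM in HFD + hIRI, against 33.9 to 49.7 CPM in all sham kidneys. Of the hIRI kidneys, ND + hIRI replicate 1 alone was at the sham level of Slc4a1, and the estimate of -2.57 ± 1.02 rests on it. Aqp1, a water channel, was the proximal tubule gene past the unadjusted level, at 796.5 to 1024 CPM in ND + hIRI against 511.0 to 632.2 CPM in HFD + hIRI (interaction -0.42 ± 0.16). Cldn5, an endothelial tight junction protein, had the higher response (0.78 ± 0.27), as did Cd2ap, a podocyte adaptor (0.44 ± 0.20). Each was the 1 member of its list past the unadjusted level, of 21 endothelial and 15 podocyte genes. Most members of both lists went the other way. Interactions were positive in 6 of 21 and 3 of 15, with medians of -0.19 and -0.21.

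Of 32 nuclear genes of oxidative phosphorylation, 31 had a positive interaction, 7 past the unadjusted level and 0 negative past it. Among all genes, 5.79% were positive and 4.35% negative past it. Responses did not overlap, with HFD above ND, in 18 of the 32, against 12.4% of all genes. The median was 0.01 on ND and 0.19 on HFD, and the median interaction of 0.17 was 0.0511 with library totals alone. Uqcrb, a subunit of complex III, was at 216.5 to 237.3 CPM in ND + hIRI against 288.2 to 343.7 CPM in HFD + hIRI (interaction 0.45 ± 0.13). All 46 ribosomal protein genes measured had a positive interaction, with 0 past the unadjusted level by edgeR. Their median interaction was 0.21, beside -0.0065 for all genes tested. That median was 0.0818 with library totals alone and 0.0581 without both replicate 1 libraries, and the median response of the HFD + hIRI kidneys was 0.54, 0.05 and 0.18. Short genes as a whole lay on this side, since the 2819 shortest genes, of up to 1636 exon bases, had a median interaction of 0.08 and the 4 equal groups of longer genes -0.03 to -0.01. Of 28 ribosome biogenesis genes 16 rose on HFD and 6 had the higher response, where 11.4% and 5.79% of all genes did. Among the 6 were Nop58 (0.95 ± 0.37), a core protein of small nucleolar ribonucleoproteins, Dkc1 (0.75 ± 0.24), the pseudouridine synthase of ribosomal RNA, and Grwd1 (0.71 ± 0.25). Glycolysis and hypoxia genes were mixed, with Ldha, lactate dehydrogenase, at 0.60 ± 0.19 and Hk1, a hexokinase, at -0.51 ± 0.16, as 1 of 25 was higher and 3 lower.

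Of 35 cilium genes measured, 14 fell on HFD, where 8.47% of all genes did. At an unadjusted p under 0.05, 8 had the lower and 2 the higher response, where 4.35% and 5.79% of all genes did. Bbs9, a subunit of the BBSome that carries cargo into cilia, was at 13.6 to 15.2 CPM in ND + hIRI against 4.49, 7.35 and 9.78 CPM in HFD + hIRI. Bbs2 had -0.61 ± 0.21 and Ift122, of the intraflagellar transport machinery, -0.89 ± 0.32, while Bbs4, another BBSome subunit, had 0.57 ± 0.16. The median of -0.25 went to 0.00 without both replicate 1 libraries. Of 24 cell cycle genes 2, Cit (-1.36 ± 0.49) and Kif20b (-1.45 ± 0.65), which act in cell division, had the lower response.

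**Figure D5:**
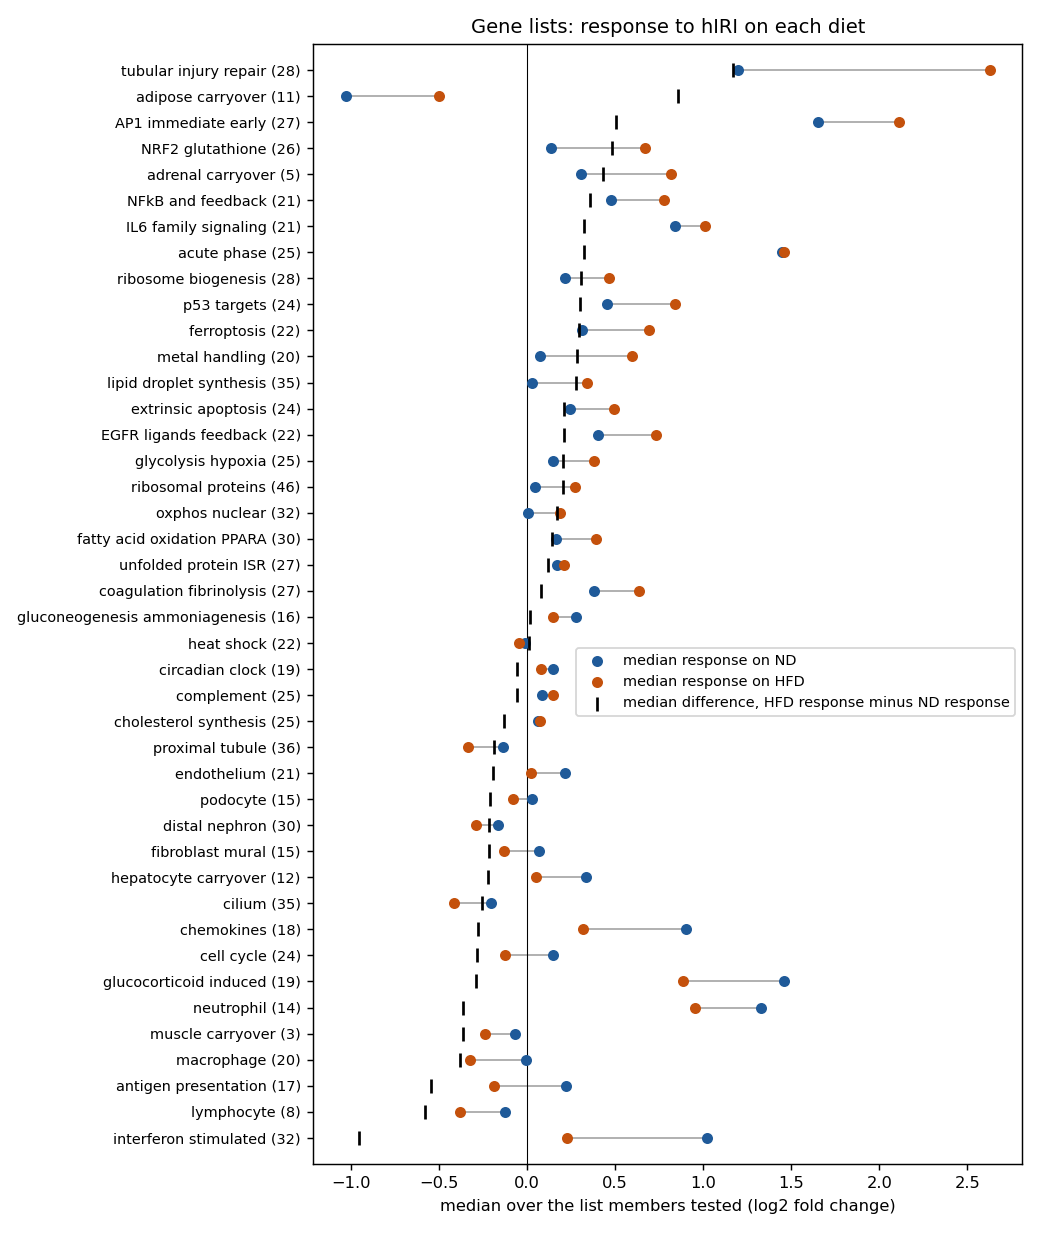
Median response to hIRI over the measured members of 42 gene lists (number in brackets) on ND (blue) and HFD (orange), with a bar for the median interaction, all as log2 fold changes. Tubular injury genes had the highest median interaction, 1.17, and interferon-stimulated genes the lowest, -0.96, the latter resting on ND + hIRI replicate 2.

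Over the 42 lists, 23 had a positive and 19 a negative median interaction, beside -0.01 for all genes tested. The lists overlap and were written with results of these data known, so they describe and do not test. Fgb made the acute phase and coagulation lists the 2 with a member past the adjusted test, and Vdr belonged to none of the 42.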

How the data were processed

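The libraries were made from whole-kidney RNA, 3 mice to a group. The authors deposited 1 table of raw read counts per gene with gene positions and exon lengths in bases. Per the submitters' processing notes they used FastQC 0.11.5, STAR 2.7.10a, featureCounts of Subread 2.0.3, edgeR 3.42.4 and mm10. For the gene annotation and strand setting, nothing was given in the sources used here. Its other columns, which hold log2 CPM from the authors and the fold changes, p-values and FDR of their own comparisons, were not used.

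The deposited counts were fitted in R 4.3.3 with edgeR 4.0.16 (TMM scaling, robust dispersion, quasi-likelihood test), with 1 mean per group over all 12 libraries, and p-values were adjusted over all 14091 genes by the Benjamini-Hochberg method at 0.05. A filter on low counts removed 0 genes, and a minimum of 10 counts per library would keep 13039. CPM used TMM library sizes. A library's response was its log2 CPM (prior count 2) minus the mean of the 3 sham libraries of its diet. Interactions are given ± SE.

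The comparison, the 42 gene lists and the rules were chosen with earlier results of these data known. Named were genes past the adjusted test; the 12 largest interactions per direction with an unadjusted p under 0.05, a mean of 1 or more in log2 CPM and responses that did not overlap; 8 per direction with opposite responses; 8 that responded less in each direction; and up to 4 members per direction of each list. Other genes were chosen after their values were seen. Predicted gene models were counted but not named. Alternatives were other scalings, filters, tests (limma 3.58.1, DESeq2 1.42.0), covariates, thresholds and left-out libraries. The method was tested on simulated data. Saa1 and Saa2 are near copies and may share reads, as may ribosomal protein genes, so their values are uncertain. Promoter sequences came from RefSeq, where 105 of 135 named genes matched.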

Additional observations from a re-analysis of the deposited data

Results flagged for a closer look

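For 2 genes the response to hIRI differed between the diets by the test of the difference itself. The HFD response of Fgb exceeded its ND response by 4.90 on the log2 scale (edgeR quasi-likelihood test, adjusted p = 0.0461), and the 3 HFD + hIRI kidneys were above the other 9. The HFD response of Vdr was below its ND response, at -1.09 (adjusted p = 0.0461), with all 3 HFD + hIRI kidneys below and all 3 ND + hIRI kidneys above the sham kidneys.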

How the results depend on the processing

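The adjusted interaction count of 2 was 8 with the edgeR likelihood ratio test, 33 with DESeq2, 4 with limma voom and sample quality weights, 7 without replicate 1 of both hIRI groups together, and 0 with limma voom, limma voom with group quality weights, the number run as a covariate, the length trend removed, the higher run alone or an adjusted p under 0.01. It ranged from 0 to 2 as single libraries were left out. The ND response count of 0 was 340, 444 and 696 with the likelihood ratio test, DESeq2 and voom with sample quality weights, 2322 without both replicate 1 libraries, and 0 to 531 with single libraries left out. The HFD response count of 2801 was 4222 with DESeq2, 5836 with voom and sample quality weights, 18 with the run as a covariate, 0 in the higher run alone, 23 and 4936 at adjusted p under 0.01 and 0.10, 1003 with a size of at least 1, and 1 to 4742 with single libraries left out. The unadjusted interaction count of 1429 was 2438 with voom and sample quality weights, 330 in the higher run alone and 786 to 2845 with single libraries left out. Where a group was left with 1 library, that library was assumed to vary like the others. The causes were not tested.

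With the replicate block, the interaction count was 0, the unadjusted count 1288 and the HFD count 1870. Same-numbered libraries of different groups had correlations of their deviations from -0.417 to 0.215, over 0.1 in 6 of 18 pairs, so the numbers do not pair the mice.

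Many genes followed under the alternatives were chosen by their interaction in these same libraries, most of which each alternative reuses. A kept direction is therefore favored by the choice and is no test of stability. Of 4134 values of 148 genes under the alternatives, 4131 kept their direction. The others were the gene Ccl5, from -2.71 to 0.0988 with single libraries left out and positive without ND + hIRI replicate 2, the gene Ngp, from -5.82 to 0.0528 and positive without HFD + sham replicate 3, and the gene Trem1, at -0.0251 in the higher run alone. Of the 42 list medians, 20 changed sign in at least 1 alternative, 12 of them without both replicate 1 libraries.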
